A study of Mus musculus with 39 samples.

Results

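Paneth cell RNA was compared between 2 sets of single cells taken from irradiated mouse crypts. A cell was counted as a cell with Paneth marker RNA when at least 3 of 7 genes, Lyz1, Mmp7, Ang4, Itln1, Defa17, Defa22 and Defa24, reached 10 FPKM in it. FPKM count sequenced fragments relative to the length of a transcript and to the total of its cell. Of 37 cells, 23 met this rule (62.2%, exact 95% Clopper-Pearson interval 44.8 to 77.5%), and the other 14 are called the other cells. The series holds 39 cells, and the cells numbered 9 and 79 were left out of the comparison. Because the cells were chosen by the measured FPKM of these 7 genes, all differences between the 2 sets are given as a description, and none was tested.

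All cells were tdTomato+ Sca1- crypt epithelial cells, and the mouse strain was Lgr5-EGFP-Ires-CreERT2:Rosa-lsl-tdTomato. Tamoxifen was given 24 h before total body irradiation with 10 Gy, and the cells were sorted 48 h after it. In this line the Lgr5 promoter drives a tamoxifen-inducible Cre, so that tdTomato marks cells that used Lgr5 at the time of the injection, and their progeny. No unirradiated cell was sequenced, the labels give no age, and no animal is named, so that the cells stand as 1 biological sample and every SD is over cells. Sites of a microfluidic chip that held a single cell under the microscope were taken. Their cDNA was sequenced over the whole transcript without molecular identifiers. The intervals treat cells as independent draws and cover counting error in the number of cells only, with no spread between animals.

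Paneth cells sit at the base of small intestinal crypts, between the Lgr5-expressing stem cells from which they descend. They release antimicrobial proteins, such as lysozyme and alpha-defensins, from large secretory granules, and in mice the protease Mmp7 cuts the alpha-defensin precursors to their active form. They also give niche signals such as Wnt3, Egf and Notch ligands to the stem cells beside them, and their formation needs the transcription factors Atoh1 and Sox9.

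The name of the 2 sets holds only in part, since Paneth marker RNA was also present in most of the other cells. Among the 14 other cells, 8 had 2 of the 7 markers at 10 FPKM, 5 had 1, and only cell 36 had none. Among the 23 cells with Paneth marker RNA, 11 had exactly 3 markers, 2 had 4, 5 had 5, 3 had 6, and 2 (cells 60 and 63) had all 7. At the border, the third-highest marker was between 11.1 and 92.8 FPKM (median 16.5) in the 11 cells with 3 markers and between 0.704 and 8.02 FPKM (median 4.54) in the 8 cells with 2. The mean log2(FPKM + 1) over the 7 markers ranged from 2.16 to 3.29 in the former and from 1.72 to 3.08 in the latter, so that these neighbouring cells overlapped.

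Lyz1, which encodes the lysozyme of Paneth cells (chr10:117287795-117292868 on GRCm38, minus strand), ranged from 0 to 1498 FPKM (median 7.98) in the cells with Paneth marker RNA and from 0 to 8.02 FPKM (median 1.29) in the other cells. Mmp7 (chr9:7692111-7699416) was detected, here and below at 1 FPKM or more, in 8 of the 23 cells (34.8%, 16.4 to 57.3%) and in 1 of the 14. The mean of Mmp7 over the 23 cells was 95.2 FPKM, with 1471 FPKM in cell 63, and the highest of the 14 others had 4.77 FPKM. Ang4, an antimicrobial ribonuclease, reached 10 FPKM in 8 cells with Paneth marker RNA and in no other cell. Itln1, which encodes the lectin intelectin, was at 10 FPKM or more in 19 of the 23 cells and 2 of the 14, and cell 22 of the latter held 623 FPKM. All 23 chosen cells had at least 1 of these 4 markers that are not defensins at 10 FPKM, 10 of them had 1, and 13 had 2 or more.

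The 3 defensin markers differed in how widely they occurred. Defa24 (chr8:21734494-21735471) was at 10 FPKM or more in 22 of the 23 cells with Paneth marker RNA and in 12 of the 14 others, with medians of 165 and 125 FPKM. Defa17 followed in 21 and 7 cells, with medians of 50.6 and 10.1 FPKM. Defa22 reached 10 FPKM in 11 cells with Paneth marker RNA and in none of the others, where its highest level was 9.64 FPKM. Where Defa24 was at 10 FPKM or more, the FPKM of Defa17 amounted to a median of 27.3% of it in 22 cells with Paneth marker RNA (0 to 107%) and of 11.2% in 12 others (0.751 to 42.8%). Of the 12 cells with 4 or more markers, Defa22 itself counted among them, 10 had Defa22 at 10 FPKM, whereas cell 56 with 6 markers and cell 16 with 4 had none. Cell 18 was the only cell with 3 markers that had it, at 31.8 FPKM. The plot of expression in each cell shows Defa24 as an almost unbroken row.

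These genes lie in a single cluster of near-copies, and the coding sequences of Defa17 and Defa24 are shown here because reads can be shared between such genes. In GENCODE M21 on GRCm38, both coding sequences run to 282 bases on the plus strand of chromosome 8 and are identical at 95.7% of them. Capitals mark the 12 bases at which they differ.
Defa17: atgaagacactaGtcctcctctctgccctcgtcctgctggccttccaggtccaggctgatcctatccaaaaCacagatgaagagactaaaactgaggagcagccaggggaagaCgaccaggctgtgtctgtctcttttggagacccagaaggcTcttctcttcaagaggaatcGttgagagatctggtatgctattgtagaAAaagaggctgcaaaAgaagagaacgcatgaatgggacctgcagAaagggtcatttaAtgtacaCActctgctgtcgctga
Defa24: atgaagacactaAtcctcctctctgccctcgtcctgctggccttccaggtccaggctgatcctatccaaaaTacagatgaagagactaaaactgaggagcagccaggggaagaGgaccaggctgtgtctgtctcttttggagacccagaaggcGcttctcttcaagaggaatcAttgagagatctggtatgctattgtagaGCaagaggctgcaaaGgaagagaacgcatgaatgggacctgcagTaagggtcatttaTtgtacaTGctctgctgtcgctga
The coding sequence of Defa3 (chr8:21287409-21288377), which is no marker of the rule, did not differ from that of Defa17 at any base, and the annotated transcripts of both share an identical run of 369 bases. Defa21 and Defa22 differed at 2 of 282 coding bases. Defa3 and Defa17 both reached 10 FPKM in 28 cells and stood within 2-fold of each other in all 28. Defa21 reached 10 FPKM in 10 cells with Paneth marker RNA, and each of them also had Defa22 at that level. How the submitters' counting divided reads between such copies is not given in the sources used here, so that these genes cannot be taken as separate measurements.

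**Figure D1:**
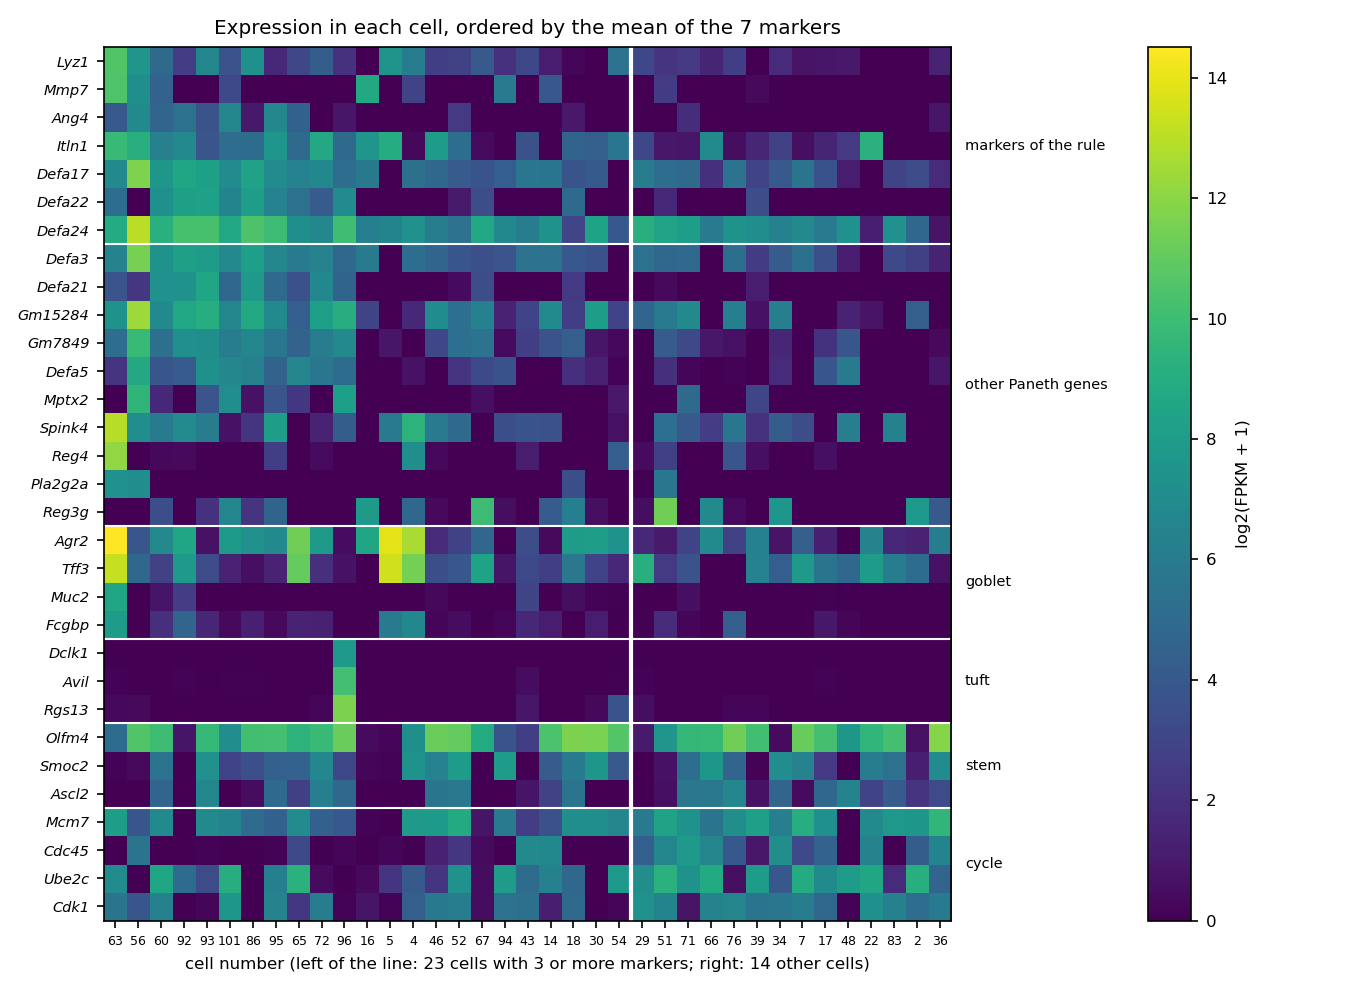
Each column is a cell and each row a gene, with log2(FPKM + 1) as colour, and cells are ordered within each set by the mean of the 7 markers. The white line parts the 23 cells with 3 or more markers from the 14 others. Cells 63, 5, 4 and 65 have the goblet genes Agr2 and Tff3 both at 1000 FPKM or more, and lower levels occur in many cells. Cell 96 alone has the tuft genes Dclk1 and Avil at 1 FPKM or more.

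Outside the 7 markers, 9669 genes averaged 1 FPKM or more across the 37 cells. Of these, 323 (3.34%) were higher by at least 1 on the scale of mean log2(FPKM + 1) in the cells with Paneth marker RNA, and 1099 (11.4%) were higher by at least 1 in the other cells. The median difference over all genes was -0.15, with 3947 genes (40.8%) higher in the cells with Paneth marker RNA and 5722 (59.2%) higher in the other cells. When any 1 of the 23 cells was left out, 172 of the 323 genes and 887 of the 1099 genes stayed past this size. The number of genes detected per cell moved with this split, from 2988 to 5502 (median 4574) in the cells with Paneth marker RNA and from 3785 to 5779 (median 4698) in the others. There were 5 cells with Paneth marker RNA below the lowest of the other cells, and 3 other cells above the highest of them. Library totals ran from 661255 to 3903971 estimated counts, with medians of 3070674 and 3263503 in the 2 sets. In the 18 and 11 cells whose numbers of detected genes lay in the shared range of 3785 to 5502, the median difference over all genes was 0.03, and 806 genes were higher by at least 1 in the cells with Paneth marker RNA against 791 in the others. The part of detection depth in the differences was not tested further.

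The genes furthest higher in the cells with Paneth marker RNA were other alpha-defensins and Agr2. The annotated alpha-defensin cluster spans 709.927 kb (chr8:21025545-21735471) and holds 37 genes in the deposited table. Of the 34 outside the rule, 31 passed the filter. Of these, 30 (96.8%, against 40.8% of all genes) had a higher mean in the cells with Paneth marker RNA. By at least 1, 24 were higher, against 3.34% of all genes, and the median difference was 2.03, against -0.15. The cluster took 0.0046 to 2.31% of the estimated counts of a cell with Paneth marker RNA (median 0.048%) and 0.0003 to 0.049% of those of another cell (median 0.0136%). As these genes resemble the 3 defensin markers in sequence and come from the same cells, their difference is no evidence apart from the rule.

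Gm15284, a defensin gene of this cluster, ranged from 0 to 5451 FPKM (median 116) in the cells with Paneth marker RNA and from 0 to 124 FPKM (median 1.14) in the others, a difference of 3.27. It was detected in 22 of 23 and 7 of 14 cells. Defa21 was detected in 13 of 23 cells (56.5%, 34.5 to 76.8%) with up to 366 FPKM, and in 1 of 14 (7.14%, 0.18 to 33.9%), at 1.21 FPKM. The other members among the 12 genes with the largest difference were Gm7849 (3.06), Gm21498 (2.88), Defa20 (2.76), Gm15308 (2.64), Defa2 (2.60), Gm14851 (2.56) and Gm21002 (2.50), with second loci of Gm7849 (2.85) and Gm21498 (2.66). In every one of these genes the lowest cells with Paneth marker RNA were at 0, so that the 2 sets overlapped. Defa6, in contrast, was present on both sides, at medians of 63.2 and 39.2 FPKM with a difference of 0.91.

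The Defa22 promoter is shown as that of a marker of the rule, and Defa21 shares this window letter for letter. Both genes reached 10 FPKM in cells of 1 set alone, which the rule itself favours for its marker Defa22. Lyz1, Mmp7, Ang4, Defa2, Gm15308 and Gm21002, among others, also did so. The 250 bases before the annotated start (chr8:21162027-21162276, plus strand, RefSeq on GRCm38.p6) hold the motif CATCAAAG, of the type bound by TCF/LEF factors, the DNA-binding partners of beta-catenin in Wnt signalling. Capitals mark its 2 copies, at 113 and 73 bases before the start.
Defa22: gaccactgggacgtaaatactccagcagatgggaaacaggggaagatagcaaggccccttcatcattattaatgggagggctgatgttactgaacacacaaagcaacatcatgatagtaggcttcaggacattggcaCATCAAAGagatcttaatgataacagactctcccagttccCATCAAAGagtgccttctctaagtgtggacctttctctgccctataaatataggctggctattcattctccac
The motif was searched on both strands (CTTTGATG on the other) in windows from 250 bases before to 50 after the start. It was found in 357 of 32851 promoter windows (1.09%) and in those of 13 of the 31 Paneth genes with a window. Of these 13, 10 are defensins that share sequence, and the others are Mmp7, Reg3a and Reg3g. A match describes the letters alone.

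Agr2, a disulfide isomerase needed for mucin folding in secretory cells (chr12:35992925-36004081), had the largest difference of all genes named, at 3.31. Its level ran from 0 to 23329 FPKM (median 163) in the cells with Paneth marker RNA and from 0 to 118 FPKM (median 4.09) in the others. Cells 63 (23329 FPKM), 5 (15335 FPKM), 4 (6447 FPKM) and 65 (2670 FPKM) held most of it. The difference stayed between 2.94 and 3.60 when any 1 of the 23 cells was left out. Outside the defensin cluster the next genes, named after their values were seen, were Serinc1 (2.28), Ppap2c (2.21), Tmem209 (2.17), the mitochondrial ribosomal gene Mrpl10 (2.07), the microsomal glutathione transferase Mgst2 (2.04) and the fatty acid oxidation enzyme Echs1 (2.01). Mgst2 was detected in 14 of 23 and 3 of 14 cells, and its 2 ranges, 0 to 116 and 0 to 22.9 FPKM, overlapped.

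**Figure D2:**
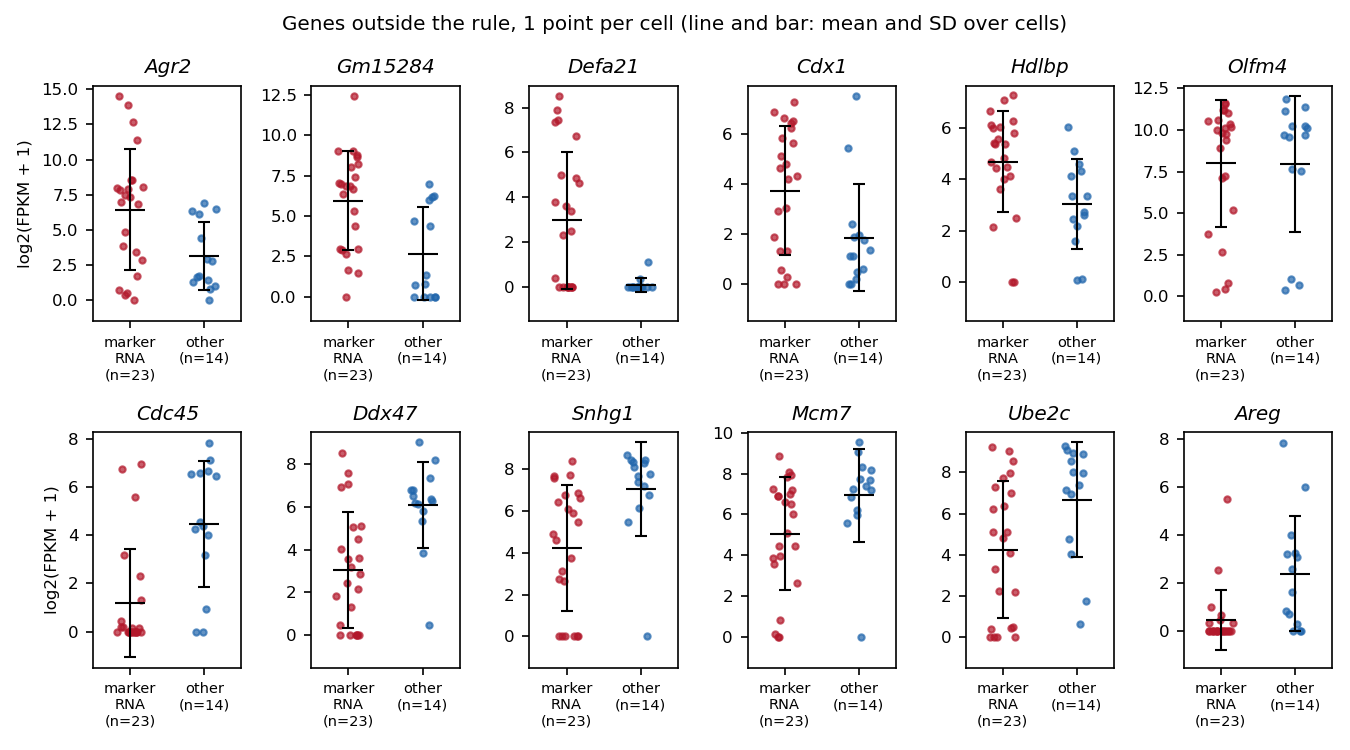
Each point is a cell, the y axes give log2(FPKM + 1), and the line and bar give the mean and SD over cells for 23 cells with Paneth marker RNA and 14 others. Defa21 is near 0 in all 14 other cells, the means of Olfm4 lie 0.04 apart, and Cdc45 is near 0 in most cells with Paneth marker RNA, while the ranges of every gene overlap.

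Of the 45 Paneth granule and antimicrobial genes listed beside the 7 markers, 30 passed the filter. Of these, 26 (86.7%, against 40.8% of all genes) had a higher mean in the cells with Paneth marker RNA. None was lower by at least 1, 17 (56.7%, against 3.34% of all genes) were higher by at least 1, and the median difference was 1.18, against -0.15 over all genes. Most of these 17 genes lay in the defensin cluster, in which 15 of 20 listed genes were higher by at least 1 (median 2.11). Of the 10 listed genes outside the cluster, 7 were higher (70%, against 40.8% of all genes), and the median of the 10 was 0.29. Of the 10, 2 were higher by at least 1, Spink4 (1.22) and Mptx2 (1.11), against 3.34% of all genes. Spink4, a trypsin inhibitor of goblet and Paneth cells, was detected in 16 of 23 and 9 of 14 cells, with a highest level of 7773 FPKM in cell 63. Mptx2, a pentraxin of Paneth cells, was detected in 8 and 2 cells, up to 731 FPKM in cell 56. Reg3g, an antibacterial lectin of enterocytes and Paneth cells, leaned to the other cells (-0.43) with up to 2660 FPKM there and 1005 FPKM in the cells with Paneth marker RNA. Among others, Reg3a, Pnliprp2, Ang2 and Habp2 were listed at 0 in all 37 cells.

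The other Paneth genes were followed along the number of markers that chose the cells. As most of them resemble the 3 defensin markers in sequence, their order along this number is no evidence apart from the rule. The summed FPKM of the defensin cluster genes outside the rule had a median of 1741 in the 12 cells with 4 or more markers, 229 in the 11 cells with 3, 289 in the 8 cells with 2 and 57.7 in the 6 cells with 0 or 1. The means of the cells with 3 and with 2 markers were 343 and 288 FPKM, in the opposite order to their medians, and their ranges of 9.39 to 1108 and 85.7 to 508 FPKM overlapped. The mean log2(FPKM + 1) over the listed Paneth genes per cell gave medians of 3.55, 1.60, 1.18 and 0.78 in the same order.

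Regulators of Paneth cell fate and position had a median of 0.43, with 8 of 10 higher in the cells with Paneth marker RNA, against 40.8% of all genes, and 2 higher by at least 1, against 3.34%. The median was 0.07 within the larger and 0.89 within the smaller of the groups of cells formed on stem cell genes and described further on. Cdx1, a homeobox factor of intestinal identity, had medians of 18.5 and 1.36 FPKM and the largest difference of the list (1.88), with detection in 18 of 23 and 9 of 14 cells. Ephb3, a receptor that holds Paneth cells at the crypt base, was detected in 6 and 2 cells, with up to 153 and 3.28 FPKM (1.17). Xbp1, a factor that expands the secretory apparatus, had a difference of 0.97. Sox9 was detected in 23 of 23 and 13 of 14 cells at medians of 38.5 and 36.1 FPKM (0.21). Atoh1 was detected in 2 and 1 cells only, at no more than 8.84 FPKM, and Gfi1 was listed at 0 throughout.

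Of 13 listed niche signals, 7 passed the filter. Of these, 3 were higher and 4 (57.1%, near the 59.2% of all genes) lower in the cells with Paneth marker RNA. By at least 1, 2 of the 7 were lower (28.6%, against 11.4%). The median was -0.62, but 0.12 with 2 or more markers as the rule, -0.21 with markers at 5 FPKM, -0.24 with 4 or more markers and -1.27 as a log2 ratio of means. Wnt3 was detected in 3 of 23 and 1 of 14 cells and Dll4 in 4 and 0 cells, whereas Egf, Wnt6, Wnt9b, Wnt11 and Bst1 were listed at 0 in every cell. The Egf receptor ligand Areg was detected in 3 of 23 cells and 8 of 14 others (-1.92), and the Notch ligand Jag1 in 13 and 12 (-1.08). Cd24a, a surface protein high on Paneth cells, was detected in 23 and 13 cells at medians of 119 and 90.6 FPKM (0.41).

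Genes for folding and secretion in the endoplasmic reticulum were spread around 0. Of 29, 17 were higher (58.6%, against 40.8% of all genes), 3 of them by at least 1 (10.3%, against 3.34%), and 2 were lower by at least 1 (6.90%, against 11.4%). The median of 0.07 held no stable sign, from -0.42 with 4 or more markers and -0.35 within the smaller of those groups to 0.37 in the shared range of genes detected. The signal peptidase subunit Sec11c (1.37) and the translocon gene Tram1 (-1.73) stood at the ends of the list.

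Goblet markers were spread over many cells of both sets, and 2 or more of 4 defining tuft markers were found in cell 96 alone among the 37. Of 7 defining goblet markers, at least 1 was at 10 FPKM in 20 of 23 and 13 of 14 cells and at least 2 in 15 and 5 cells, and cells 4, 63 and 92 had 5 each. Of 12 goblet genes, 11 were higher in the cells with Paneth marker RNA (91.7%, against 40.8% of all genes) and 3 by at least 1 (Agr2, Fcgbp and Zg16, against 3.34% of all genes), with a median of 0.65. The median was 0.34 without cell 63 and -0.13 without cells 4, 5, 63 and 65, the 4 cells in which Agr2 and Tff3 both reached 1000 FPKM. The summed level of the goblet list ran from 16.8 to 36644 FPKM (median 405) in the cells with Paneth marker RNA and from 84.6 to 1192 FPKM (median 234) in the others, and the defining mucin Muc2 was detected in 3 and 0 cells. For the tuft list 9 of 10 genes were higher (90%, against 40.8% of all genes), none by at least 1. The median of 0.51 became -0.35 without cell 96 and 0.050 in the shared range of genes detected. The summed list reached 13862 FPKM in cell 96, against a median of 1.08 FPKM in the cells with Paneth marker RNA. Genes could pass the filter through this cell alone, so that the count of 9 holds no evidence on the rest of the set. That cell held 222 FPKM of the tuft kinase Dclk1, 1162 FPKM of Avil, 3217 FPKM of Rgs13 and 5443 FPKM of Alox5ap. It also held 1063 FPKM of Defa24 and 4 markers of the rule. Of 20 enteroendocrine genes only the hormone gene Sct passed the filter, and Chga was listed at 0 in all cells.

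Single cells with much Paneth RNA differed in what else they held. Cell 63 combined Lyz1 at 1498 FPKM and Mmp7 at 1471 FPKM with Tff3 at 9579, Spink4 at 7773, Reg4 at 4547 and Muc2 at 387 FPKM, and had 34.7 FPKM of the stem cell gene Olfm4. Cell 56 was different, with Defa24 at 8338, Gm15284 at 5451 and Defa17 at 3331 FPKM beside Olfm4 at 1515 FPKM and no Defa22. Cell 5 had 15335 FPKM of Agr2 and no Defa17. It also had 477 FPKM of Ly6a, the gene of the Sca1 antigen against which the cells had been sorted, and cell 34 of the other set had 509 FPKM.

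Stem cell genes were found in both sets. Olfm4 reached 100 FPKM in 17 of 23 cells with Paneth marker RNA and in 11 of 14 others, at medians of 904 and 823 FPKM and a difference of 0.04. Over 24 crypt base stem cell genes the median was -0.24 (-0.050 without cell 16 and 0.032 in the shared range of genes detected). With 8 higher and 16 lower (66.7%), 1 higher by at least 1 (4.17%) and 3 lower by at least 1 (12.5%), the list lay near the shares over all genes of 59.2%, 3.34% and 11.4%. The former was Igfbp4 (1.02), and the latter were Aqp4 (-1.33), Slc14a1 (-1.33) and Ascl2 (-1.26). Lgr5 itself was detected in 5 and 1 cells, at most 82.0 FPKM in cell 93, which had 6 markers. The 37 cells were also grouped here by hierarchical clustering on the 98 genes found of the stem cell signature that the study used, and these groups were not compared with those of the study. Of the 22 cells in the larger group, 13 had Paneth marker RNA (59.1%, 36.4 to 79.3%). Of the 15 in the smaller group, 10 had it (66.7%, 38.4 to 88.2%). These intervals, which are over cells, overlap, and the shares were not tested against each other.

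Cell cycle genes leaned to the other cells. Of 38 DNA replication genes, 33 (86.8%, against 59.2% of all genes) were higher in the other cells, 16 (42.1%, against 11.4%) by at least 1, and the median was -0.80. Cdc45, part of the helicase that opens replicating DNA (chr16:18780447-18811972), had the largest difference of the genes named in this direction (-3.29), which was -0.73 with 2 or more markers as the rule. It ran from 0 to 123 FPKM (median 0) in the cells with Paneth marker RNA and from 0 to 227 FPKM (median 21.1) in the others, and was detected in 6 of 23 cells (26.1%, 10.2 to 48.4%) and 11 of 14 (78.6%, 49.2 to 95.3%). Rfc3 (-2.04), the primase Prim1 (-2.02) and the helicase subunit Mcm7 (-1.88) followed. Of 35 mitosis genes, 30 (85.7%) were higher in the other cells, 15 (42.9%) by at least 1 (median -0.85), against the same shares of all genes, with Ube2c (-2.43), Cdk1 (-2.15) and Aurka (-2.11) at the end of the list. In the cells of the shared range of detected genes, the DNA replication median was -0.22 and the mitosis median 0.04, while that of the Paneth list was 1.04. With 2 or more markers as the rule the mitosis median was -0.08, and with 4 or more it was -0.31. The DNA replication median was -0.75 and -0.80 under these rules.

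The other genes among the 12 furthest higher in the other cells had varied functions. They were the RNA helicase Ddx47 (-3.02), the snoRNA host Snhg1 (-2.83), Ndufaf1 (-2.78), the RNase P subunit Rpp30 (-2.72), the lipase-like Aadac (-2.72), Ascc2 (-2.67), Dnph1 (-2.64), the nucleoporin Nup88 (-2.63), Dph7 (-2.61), Rnf181 (-2.61) and 3110002H16Rik (-2.60). Snhg1, for instance, had medians of 28.7 FPKM in the cells with Paneth marker RNA and 212 FPKM in the others. Each of these genes was found in cells of both sets. Several of the values depended on the marker rule: Snhg1 stood at -0.38, Dph7 at -0.69 and Nup88 at 0.024 with markers at 50 FPKM, and Ddx47 at -0.80 and 3110002H16Rik at -0.35 with 4 or more markers.

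**Figure D3:**
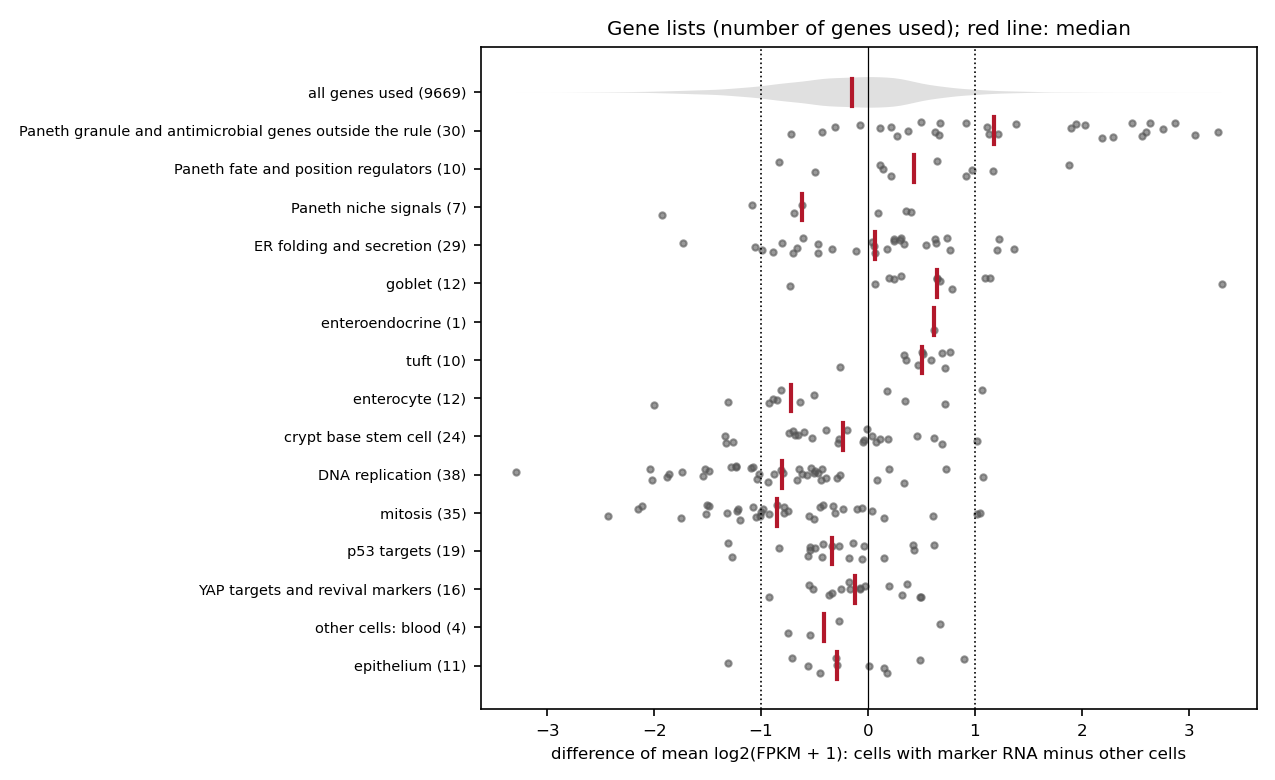
Each point is a gene, and the x axis is the difference of mean log2(FPKM + 1), cells with Paneth marker RNA minus the other cells. Red lines are medians, the grey shape is the distribution over 9669 genes, and dotted lines stand at -1 and 1. The Paneth list has its median at 1.18, and the DNA replication and mitosis lists at -0.80 and -0.85.

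Enterocyte, damage and general epithelial genes were examined in the same way. Of 12 enterocyte genes, 8 (66.7%, against 59.2% of all genes) were lower in the cells with Paneth marker RNA, 2 of them by at least 1 (16.7%, against 11.4%), and 1 was higher by at least 1 (8.33%, against 3.34%). Their median was -0.72, but -0.28 in the shared range of genes detected, -0.12 within the larger group, 0.13 with 2 or more markers and 0.081 as a log2 ratio of means. The list included the fatty acid binding protein Fabp1 at -2.00, the brush border protein Vil1 at -1.31 and the apolipoprotein Apoa1 at 1.07. Of 19 p53 target genes, 15 were lower (78.9%, against 59.2% of all genes). Plk2 (-1.31) and Aen (-1.27) were lower by at least 1, which is 10.5% of the 19 and near the 11.4% of all genes. The median was -0.33, but -0.046 in the shared range of genes detected, 0.25 within the larger group and -1.14 within the smaller. Cdkn1a, the arrest gene of this pathway, had medians of 17.2 and 46.8 FPKM (-0.83). The 16 YAP target and revival genes had a median of -0.12 that turned to 0.44 with markers at 50 FPKM and 0.40 with 2 or more markers and was -0.74 within the smaller group, and none differed by 1 in either direction. The 11 epithelial genes had a median of -0.29 (-0.025 without cell 96 and 0.11 in the shared range), with 1 lower by at least 1 (9.09%), and Epcam was detected in all 37 cells at medians of 213 and 165 FPKM. Of 24 genes of blood cells 4 passed the filter, with a median of -0.41 that was 0.29 within the larger group, 0.17 in the shared range and -2.19 as a log2 ratio of means, their summed level ran from 0 to 531 and from 0 to 975 FPKM in the 2 sets, and Cd3e and Cd52 were listed at 0. No gene of the stroma and vessel list passed it, and Col1a1, Dcn and Pecam1 were at 0 in all cells.

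The same split was made within the larger and the smaller group of cells. All 24 genes named as furthest apart had the same direction in both, which their choice on these same cells largely fixes. Agr2 differed by 1.62 in the larger group and by 6.11 in the smaller, and Aadac by -0.30 and -6.54. Gm15284 went the other way, with 4.81 and 0.75. The Paneth list had medians of 1.11 and 0.98, DNA replication -0.41 and -1.33, mitosis -0.41 and -1.01, and goblet genes 0.16 and 1.15. The difference between the groups was not tested.

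**Figure D4:**
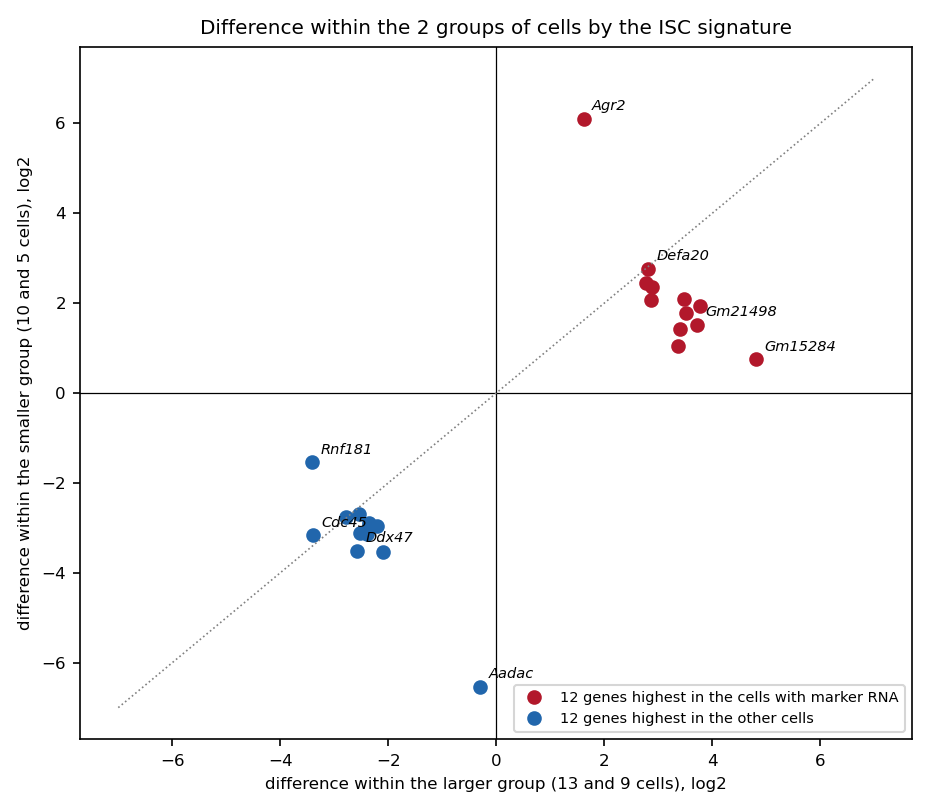
The x axis is the difference of mean log2(FPKM + 1) between 13 cells with Paneth marker RNA and 9 others within the larger group, and the y axis the same between 10 and 5 cells within the smaller group, for the 24 genes furthest apart. The genes were chosen on the same cells, and all points lie in the lower left or upper right of the plot, with Agr2, Aadac and Gm15284 farthest from the dotted line of equal differences.

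The genes whose levels followed the markers most closely over the 37 cells were again defensins. Defa3 and Defa21 nearly repeat the coding sequences of the markers Defa17 and Defa22, and the markers chose the cells, so that these ranks hold nothing apart from the rule. The rank correlation (Spearman) with the mean log2(FPKM + 1) of the 7 markers was 0.80 for Defa3, 0.74 for Defa21 and 0.70 for Gm7849. Outside the defensins the highest values were 0.50 for Mrpl57, 1200014J11Rik and Hdlbp and 0.49 for Fcgbp and Mitd1, below the 3 defensins. Hdlbp, which encodes the RNA-binding protein vigilin, was detected in 21 of 23 and 12 of 14 cells, with medians of 40.1 and 7.38 FPKM. The lowest values were -0.66 for the channel subunit Lrrc8a and -0.60 for Siah1b, an E3 ubiquitin ligase detected in 1 of 23 and 8 of 14 cells. With no animal named, the cells stand as 1 biological sample, and they were sequenced as separate libraries of unequal depth. These correlations describe these cells only.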

How the data were processed

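Single-cell RNA sequencing libraries of 39 cells were made by the authors with a C1 microfluidic system, SMARTer cDNA synthesis and Nextera XT, and sequenced as paired reads. Per the submitters' processing notes, bcl2fastq 1.8.4 and TopHat2 2.0.14 and the builds mm10 and GRCm38 were used. The tool that counted genes is not given in the sources used here. The authors deposited a table of 25219 genes with FPKM and with estimated counts per gene, of which 18.5% of those above 0 are not whole. Genes with several loci stand in separate rows, named here with a number in parentheses. Gene coordinates are those of the deposited table unless another source is named.

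Levels were compared as the difference of mean log2(FPKM + 1), with a pseudocount of 1 FPKM, which understates changes of low genes, for the 9669 genes that averaged 1 FPKM or more. A difference of 1 was counted as large, and 1 FPKM as detected. Intervals are exact at 95%. Cells stand for no replicates, so that no test was run. Estimated counts were used for depth and for thinning every cell to 600000 counts with a fixed seed. The cells, the 7 markers and the 16 gene lists were chosen with earlier results of these data known. Genes named are the 7 markers, the 12 genes per direction with the largest difference, up to 6 per list with the largest difference, any Paneth gene, regulator or niche signal, and the 5 genes most like the markers. Those 12 and 6 needed a mean of 10 FPKM and detection in 50% of cells on the higher side. The 12 also needed a difference of 1 with any 1 cell with Paneth marker RNA left out. Others, including single cells and defining markers, were picked after their values were seen, as were the motif, the 3 genes of lowest rank correlation and the alternatives on the shared range of genes detected and without the Agr2 and Tff3 cells. Alternatives changed the pseudocount, scale, filter, marker level and number, the cells and the depth. The code was tested on simulated data. Calculations ran under Python 3.11.15 with pandas 2.3.3, numpy 2.4.6 and scipy 1.17.1, and matplotlib 3.10.9 drew the plots.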

Additional observations from a re-analysis of the deposited data

Results flagged for a closer look

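The cells numbered 9 and 79 belong to neither set of the comparison, and both held Paneth marker RNA. Cell 9 had 4 of the 7 markers at 10 FPKM or more, with Defa24 at 3305, Defa17 at 967 and Ang4 at 14.5 FPKM and with Itln1, in a library of 398418 estimated counts with 2287 genes detected. Cell 79 had 2 of the 7, with Defa24 at 473 and Defa17 at 142 FPKM, beside the tuft genes Rgs13 at 1368, Avil at 386 and Dclk1 at 105 FPKM. No cell without irradiation serves as a control for these levels, and their source was not tested.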

How the results depend on the processing

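With all 39 cells, 24 had Paneth marker RNA. The number of such cells was 11 with markers at 50 FPKM, 12 with 4 or more markers, 13 with 2 or more of Lyz1, Mmp7, Ang4 and Itln1, 27 at 5 FPKM and 31 with 2 or more markers. Genes higher by at least 1 in these cells numbered 856 with a pseudocount of 0.1 FPKM, 1961 as a log2 ratio of means, 592 with markers at 50 FPKM, 907 with 2 or more markers, 497 with the other cells limited to the range of genes detected, 806 with both sets so limited, and 860 and 894 within the larger and smaller group. Genes higher in the other cells numbered 2384 with a pseudocount of 0.1 FPKM and 2556 within the smaller group. Leaving out any 1 cell with Paneth marker RNA gave 309 to 382 and 1029 to 1192 genes. None of the other cells was left out singly. In the same runs the Paneth list gave 1.07 to 1.40. Its median was 3.08 as a log2 ratio of means and 2.33 with 4 or more markers, and positive under all alternatives run. Nup88 reversed to 0.024 with markers at 50 FPKM. The median over all genes ran from -0.29 to 0.07 and changed sign in 3 alternatives. Over 14 lists, 38 of 546 alternatives changed the sign of the median, none of them for DNA replication or the regulators. Cdc45 stood at -0.73 with 2 or more markers, and other named genes of the other cells also shrank under other marker rules, among them Snhg1 to -0.38. The cause of these changes was not tested. No paired analysis was possible because the labels give the cells no shared replicate numbers. Cells that stand as 1 sample, dropout of low transcripts and shared defensin reads limit all values.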
